A study of Mus musculus with 24 samples.

Results

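Late pregnancy was compared with the virgin state in the mammary gland of wild-type C57BL/6 mice. The comparison used the 12 arrays titled wild type among the 24 arrays of the series, 7 from virgins aged 8 weeks and 5 from mice on day 18 of pregnancy. All non-control probes were taken, with signals scaled to the 75th percentile of each array. Each array held RNA from the inguinal gland number 4 of 1 mouse, with the lymph node removed, and the mouse numbers all differed. The other 12 arrays came from C57BL/6 mice with the R96C change knocked into SOCS2 on both copies, 7 virgins and 5 at day 18, and served only to set the stage difference of the 2 genotypes side by side. Wild-type mice carried no altered allele, and the labels name no treatment. The labels do not give the age of the pregnant mice, so pregnancy and age cannot be told apart. The gland was measured as whole tissue, so fewer cells of a type and less RNA per cell cannot be told apart for any gene below.

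The virgin gland is a sparse tree of ducts set in a fat pad. Its ducts have an inner luminal layer, part of which senses estrogen and progesterone, and an outer contractile basal layer. During pregnancy, progesterone and prolactin drive side branching and then the growth of alveoli, whose luminal cells begin to make milk proteins and fat before birth. Prolactin acts through its receptor, JAK2 and STAT5 to switch on casein and whey protein genes, and full secretion starts only when progesterone falls at birth.

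Levels are log2 signals relative to the 75th percentile of the same array, so that 0 is that percentile. Differences are day 18 minus virgin with their standard error, and adjusted p values come from limma with Benjamini-Hochberg adjustment over 22071 genes. Genes with an adjusted p under 0.05 count as called. Virgin values are given as lowest, median and highest, and the 5 pregnant values in the order of mice 206, 232, 233, 234 and 235. Where under 50% of a stage's arrays detected a gene, only a lower bound of its fold is given. The number of arrays limits the precision, and the median standard error was 0.17.

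Between 33413 and 38814 of 59305 non-control spots were well above background on each array, and 0 were saturated. The 75th percentile signal was 487 to 804 in virgins and 373 to 559 at day 18, a gap that the scaling removes. All listed markers of luminal, basal, fat, fibroblast, endothelial and macrophage cells were above background on all 12 arrays. The defining lymph node markers Ccl21a, Cxcl13 and Cr2 were summed at 0.245 to 2.21 times the 75th percentile in virgins and at 0.192 to 0.489 times at day 18, and 0 of these 3 were called. Virgin 317 stood apart from its group, with a luminal epithelium score (the mean log2 value of the listed genes) of -0.90 against 0.50 to 1.23 in the other 6 virgins. It also had the highest cell cycle, macrophage and interferon scores of the virgins. Virgin 320 had a skeletal muscle score of 5.83 and virgin 256 of 1.21, while pregnant mouse 233 had -0.26 and the remaining 9 arrays lay between -3.88 and -2.66. Virgins 365 and 369 had casein scores of -4.47 and -5.00, against 0.30 to 3.32 in the other 5. Leaving out virgin 317 or 320 moved list counts by at most 3 genes in either direction, except for 5 more cell cycle rises without virgin 317, and several of these counts stand beside their lists. Of the 220 genes named below, 199 were called, and their groups did not overlap except where this is said.

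**Figure D1:**
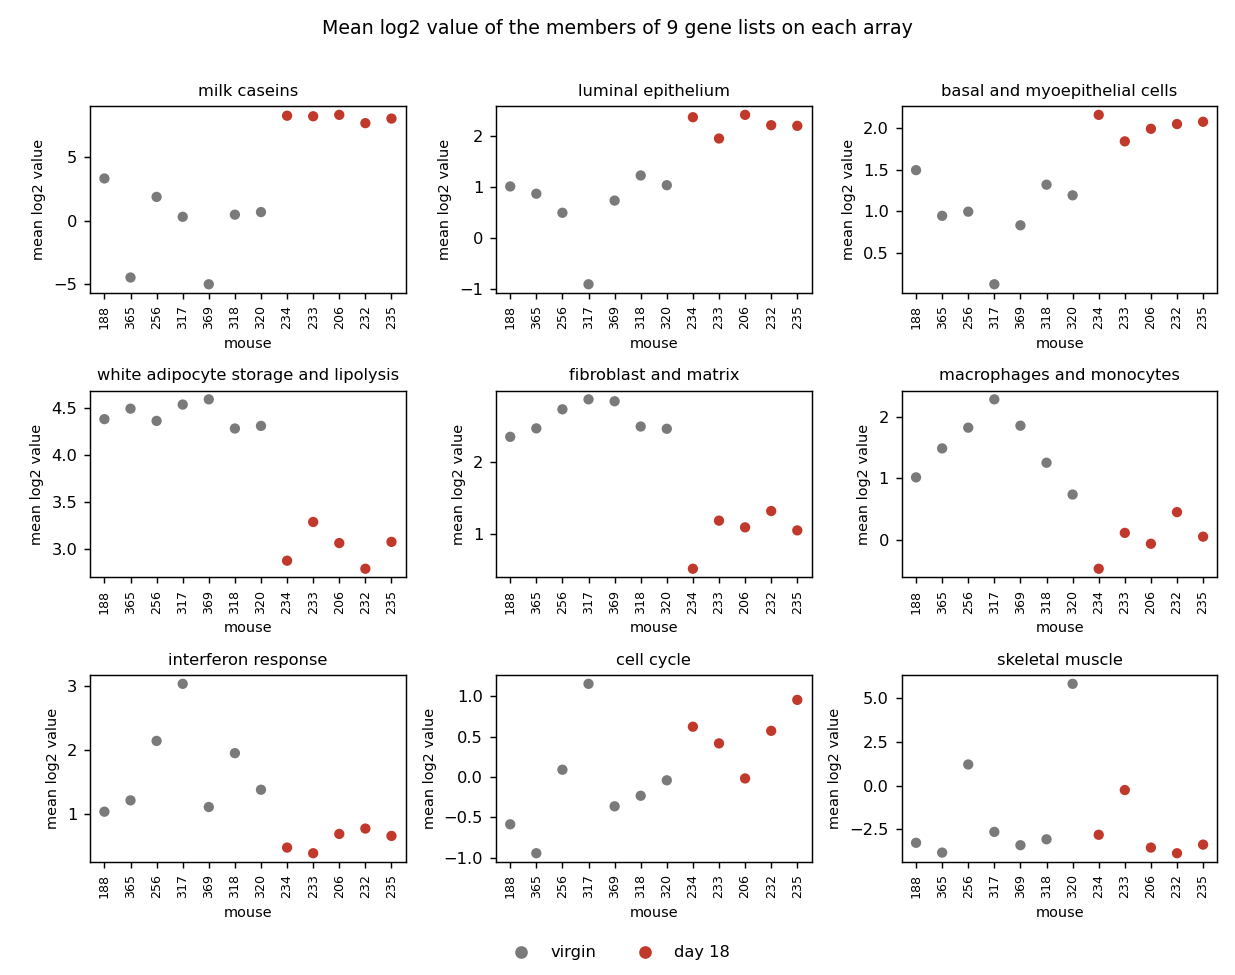
Mean log2 value of the tested members of 9 gene lists (vertical axes, log2 signal over the array's 75th percentile) on each wild-type array (horizontal axes, mouse number), grey for virgins and red for day 18. Casein values of the pregnant mice lie between 7.66 and 8.31, above every virgin, and virgin 317 stands low for luminal epithelium while virgin 320 stands high for skeletal muscle.

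The stage difference reached most of the measured genes. Of 22071 genes, 13256 (60.1%) were called, 6889 higher (31.2%) and 6367 lower (28.8%) at day 18. At least 2-fold changes were called for 6534 genes (29.6%), and at least 4-fold changes for 1048 higher (4.75%) and 1155 lower (5.23%). These sizes depend on the processing: normexp gave 3785 at 2-fold and 832 at 4-fold in both directions together, and spike-in scaling 10922 and 3984. Values of the 2 groups did not overlap for 8732 genes (39.6%). The first principal component held 71.0% of the variance and placed the virgins between -95.0 and -63.7 and the pregnant mice between 96.4 and 131.0. Of the called genes, 13005 (98.1%) had the same sign within each of the 3 slides, of which slide 1 held 1 pregnant mouse. Without virgin 317 the count called was 12980, and without virgin 320 it was 12922. A fit to all 24 arrays called 9314, and 13313 without 3 knock-in arrays that stood apart.

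All directions are relative to the 75th percentile. Scaling to 7 spike-in control probes instead shifted the all-gene median by -0.92, so 1579 genes were called higher and 16000 lower. Rises smaller than that shift are therefore lost or turned on the spike-in scale, and 15 named genes, called or not, changed sign there. Larger rises can lose their call too, as those of Mki67 and Ccnb1 did, and 14 named genes lost their call there without a change of sign. Scaling to the array median raised the share of calls that were higher from 52.0% to 61.9%, and normexp background correction to 63.5%.

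Most of these genes moved in the same direction in the knock-in mice. Of the wild-type calls, 98.6% had the same sign in the knock-in mice, and 8982 genes were called in both genotypes, which is 67.8% of the wild-type calls and 93.7% of the 9581 knock-in calls (43.4% of genes, 23.0% higher and 20.4% lower). Every one of those 8982 had the same sign. By limma's interaction contrast 0 genes differed between the genotypes in their stage difference (0.00%), with 227 at an unadjusted p under 0.05. Without knock-in virgins 376 and 198 and knock-in day-18 mouse 184, which stood apart in background or tissue scores, those counts were 0 and 1181. Where no gene differs, a share of about 0.05 of the 22071 genes would reach that unadjusted p. The 227 and 1181 are therefore not counts of genes that differ. A difference that was not called does not show that the genotypes respond alike.

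**Figure D2:**
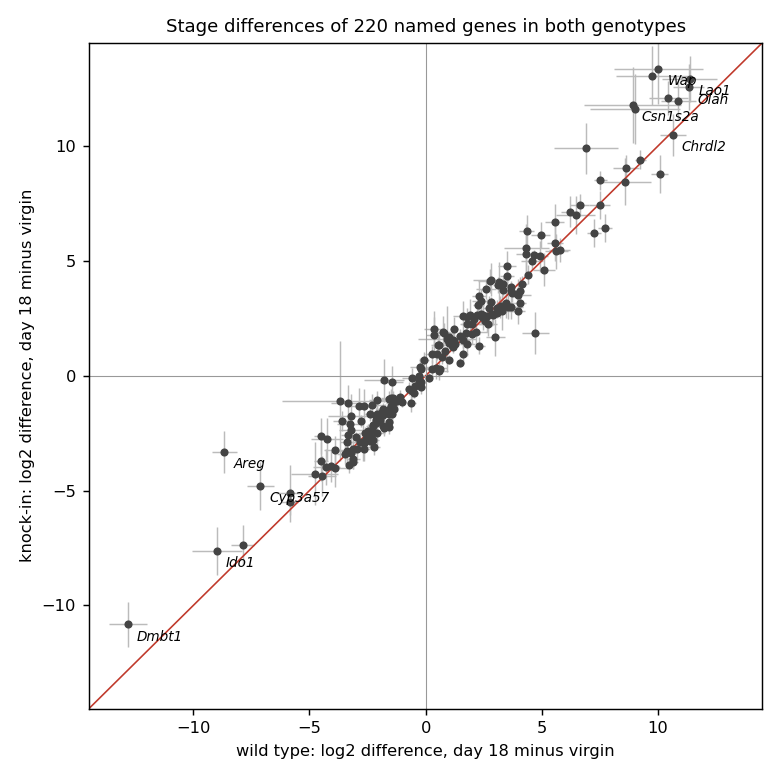
Stage difference (log2, day 18 minus virgin) of the named genes, wild type on the horizontal axis against knock-in on the vertical axis, with standard errors as grey bars and equality as the red line. Most points lie near the line, and those of genes below background at 1 stage, such as Dmbt1 and Areg, are fitted values and not measured sizes.

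The 58 gene lists and their members were chosen with earlier results of these data known, so their counts describe these genes and are not tests. List counts below are to be read beside the 31.2% of all genes called higher and the 28.8% called lower. Of the 58 lists examined, the caseins had the highest median difference. The 5 casein genes encode the micelle proteins of milk, and 5 of 5 rose, beside 31.2% of all genes, with a median of 9.02 beside 0.01 over all genes. Of 16 whey and other secreted milk protein genes 15 rose and 1 fell, with a median of 6.56. The groups did not overlap for 5 caseins and 15 of the others, beside 39.6% of all genes. Upstream of 4 of these genes the start regions are shown here because STAT5 binds the palindrome TTCNNNGAA, which reads the same on both strands. The first 3 hold a match, in capitals, and the fourth, of a gene that rose as far, holds none. Each runs 5' to 3' from 200 bases before the RefSeq start to the last base before it, on GRCm38.p6. They lie at chr5:87666008-87666207 (+ strand) for Csn1s1, chr5:87699426-87699625 (-) for Csn2, chr15:103565082-103565281 (-) for Glycam1 and chr11:6638650-6638849 (-) for Wap.
Csn1s1: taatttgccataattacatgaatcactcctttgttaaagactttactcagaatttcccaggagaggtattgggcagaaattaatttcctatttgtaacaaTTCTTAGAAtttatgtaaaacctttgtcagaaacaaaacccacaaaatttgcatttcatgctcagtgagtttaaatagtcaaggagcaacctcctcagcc
Csn2: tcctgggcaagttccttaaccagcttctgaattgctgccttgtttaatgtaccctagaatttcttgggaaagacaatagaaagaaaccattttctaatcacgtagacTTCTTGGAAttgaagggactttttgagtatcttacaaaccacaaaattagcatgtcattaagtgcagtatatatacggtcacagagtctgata
Glycam1: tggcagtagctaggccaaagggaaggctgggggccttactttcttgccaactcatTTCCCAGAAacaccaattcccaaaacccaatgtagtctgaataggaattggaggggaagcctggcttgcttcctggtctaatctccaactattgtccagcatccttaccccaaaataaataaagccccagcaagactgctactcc
Wap: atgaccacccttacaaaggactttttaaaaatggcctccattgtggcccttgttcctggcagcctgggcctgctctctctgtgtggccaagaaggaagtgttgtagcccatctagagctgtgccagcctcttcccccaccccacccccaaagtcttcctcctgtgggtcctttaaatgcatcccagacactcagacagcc
Counting the start base as 0, the matches begin at -100 in Csn1s1, -93 in Csn2 and -145 in Glycam1. Of the 22 casein, whey and other milk protein genes looked up by symbol, 16 had a window of 300 bases (250 before to 50 after the start), and 4 of these 16 held a match. Of 32851 windows in the RefSeq table, 8.30% held one, as did 7.08% of 16741 windows of genes tested. A match was held by 11.2% of 188 windows of genes called and at least 16-fold higher and 10.6% of 47 windows of genes at least 16-fold lower. A match is a run of letters, not a measured binding site.

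Csn2, beta-casein, read -7.91, 0.60 and 3.90 in virgins and 8.15, 7.45, 7.86, 8.12 and 8.12 at day 18. The pregnant mice lay close together above every virgin, while the virgins spread widely, with mice 365 and 369 not above background. The difference was 9.02 ± 1.94 (adjusted p = 0.0014), and it ranged from 7.88 without virgin 365 to 9.85 without virgin 188. Csn1s1, alpha-S1-casein, read -7.75, -0.16 and 3.29 in virgins and 8.76, 8.10, 8.45, 8.72 and 8.70 at day 18, a difference of 9.74 ± 1.55 (adjusted p = 0.00014). Without virgin 369 it was 8.65, and without virgin 188 it was 10.49. The lowest virgin value of Csn1s1 was about as low as the Csn2 values not above background, so the size of its rise by this probe is uncertain. Its other probe gave 9.49 ± 0.35. Csn1s2a differed by 8.91 ± 2.09, or by 7.67 without virgin 365 and 9.79 without virgin 188, and Csn1s2b by 10.45 ± 0.82. The other Csn1s2b probes ranged from 5.29 ± 0.42 to 11.17 ± 0.80. Csn3, kappa-casein, which coats the micelle, was above background in every virgin, at 2.62, 4.04 and 4.87, and read 8.62, 7.89, 8.37, 8.65 and 8.66 at day 18. Its difference was 4.35 ± 0.33 by the brightest probe and up to 7.57 ± 0.43 by another, so the size of its rise differed between probes. By the casein list score virgin 188 was the highest and virgins 365 and 369 the lowest. That order did not hold for every casein, as the lowest virgin for Csn3 was mouse 317, at 2.62.

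Among whey proteins, Wap, the whey acidic protein of rodents, read -7.72, 0.69 and 4.61 in virgins and 9.28, 8.72, 9.10, 9.25 and 9.55 at day 18. Its difference was 10.02 ± 1.93 (adjusted p = 0.00063), with all 5 pregnant mice above all virgins, and it ranged from 8.87 without virgin 369 to 10.93 without virgin 188. Lalba, alpha-lactalbumin, the subunit that turns a galactosyltransferase into lactose synthase, read -2.46, 0.28 and 1.60 in virgins and 8.92, 7.77, 8.61, 8.61 and 8.22 at day 18. It was above background in all 7 virgins and differed by 8.64 ± 0.57 (adjusted p = 1.1e-07). Glycam1, a mucin-like milk protein, differed by 6.90 ± 1.39, or by 6.07 without virgin 365 and 7.63 without virgin 188. Its other probe gave 9.64 ± 1.74. Lao1, a milk oxidase of L-amino acids, had the largest fitted rise of all genes tested, 11.36 ± 1.17, close to the 11.33 ± 0.66 of Olah. Lao1 went from -7.98, -3.32 and 0.28 to 8.08, 7.32, 7.82, 7.82 and 7.75. The Lao1 difference was 10.63 without virgin 365 and 12.01 without virgin 188. The lowest virgin values of Wap and Lao1 were about as low as the Csn2 values that were not above background. The sizes of these rises are therefore uncertain. Cel, the bile salt-stimulated lipase, varied little in virgins, at -3.07, -2.72 and -1.70, and read 7.36, 6.58, 6.73, 6.46 and 6.13 at day 18. Its difference of 9.24 ± 0.25 had one of the 10 smallest adjusted p values among rises, 1.2e-10. Ltf, lactoferrin, differed by 4.33 ± 0.96, or by 3.56 without virgin 317, Lpo, lactoperoxidase, by 7.25 ± 0.30, and Muc15, a fat globule mucin, by 6.21 ± 0.38. Sycn, a zymogen granule protein, was above background in 1 of 7 virgins and was at least 749-fold higher at day 18. The single fall in the list was Btc, betacellulin, a growth factor also found in milk, at -1.51 ± 0.42.

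**Figure D3:**
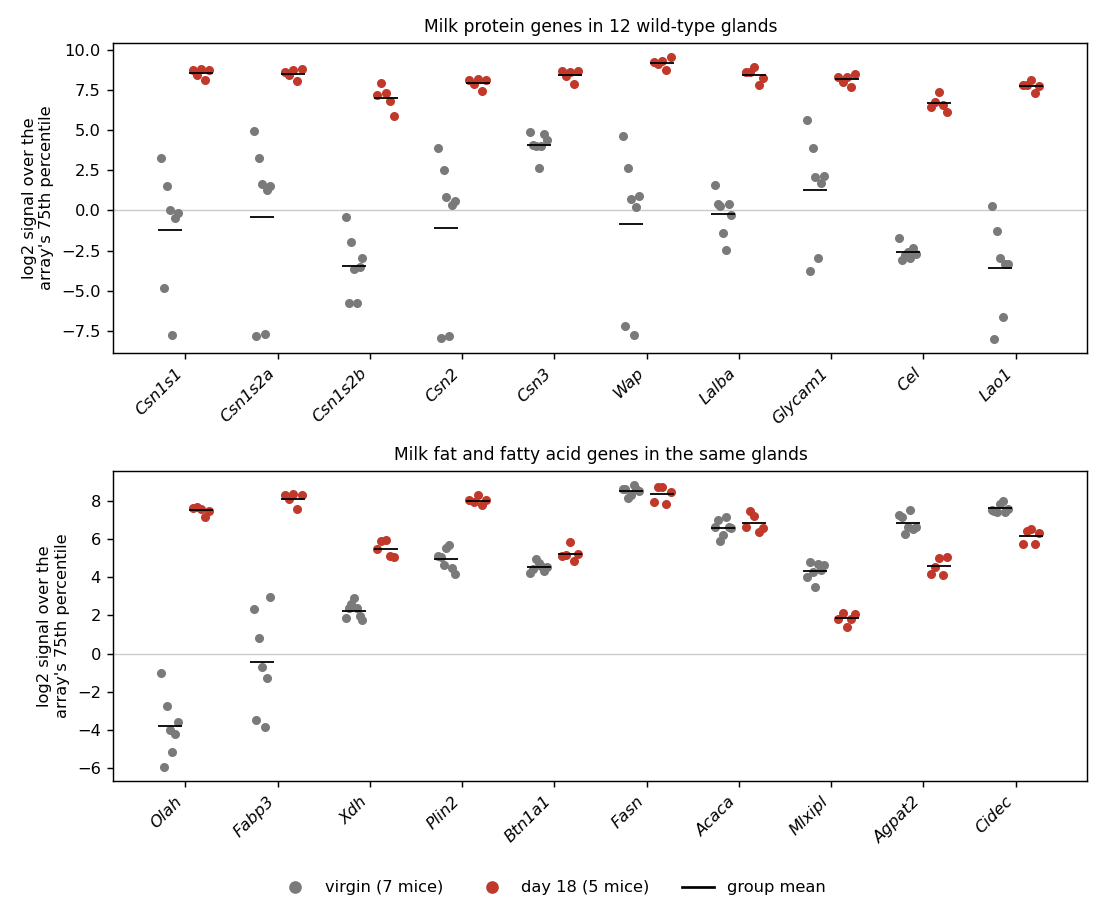
Log2 signal over the array's 75th percentile (vertical axis) of 10 milk protein genes (upper panel) and 10 milk fat or fatty acid genes (lower panel), one point per mouse, grey for 7 virgins and red for 5 mice at day 18, with black lines for group means. All 10 milk protein genes are higher in every pregnant mouse than in any virgin, while Fasn and Acaca overlap between stages and Mlxipl, Agpat2 and Cidec are lower.

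Proteins that guard mucosal surfaces mostly rose, 11 of 19, with 3 falling and a median of 2.37. Saa2 and Saa1, serum amyloid A proteins of the acute phase, were among them. Saa2 read -6.41, -3.43 and -1.60 in virgins and 7.65, 7.14, 6.61, 7.21 and 5.80 at day 18, a difference of 10.88 ± 0.77 (adjusted p = 1.9e-07), and Saa1 differed by 7.53 ± 0.30. Lcn2, an iron-scavenging lipocalin, read 0.98, 3.30 and 3.64 and 8.49, 7.64, 7.86, 7.96 and 7.49, a difference of 4.95 ± 0.39. Milk IgA depends on Jchain, which joins IgA units, Pigr, which carries IgA across the epithelium, and Ccl28, which draws IgA plasma cells to the gland. Jchain rose by 2.78 ± 0.53, and Ccl28, above background in 0 virgins and 5 pregnant mice, was at least 8.06-fold higher. Pigr was not called by its brightest probe, 0.54 ± 0.26 (adjusted p = 0.090) and -0.38 on the spike-in scale, but its second probe rose by 7.36 ± 0.29, so its probes differed. Wfdc2, a whey acidic protein family antiprotease, fell by 4.498 ± 0.29, from 3.74, 4.98 and 5.42 to 0.96, 0.30, 0.048, 0.40 and -0.047.

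Genes that wrap and release the milk fat droplet rose, 12 of 13, with a median of 2.47. Xdh, xanthine oxidoreductase, which links the droplet coat to the membrane, read 1.77, 2.37 and 2.90 in virgins and 5.96, 5.15, 5.88, 5.48 and 5.06 at day 18, a difference of 3.25 ± 0.23 (adjusted p = 1.8e-07). Plin2, the droplet coat protein of milk-secreting cells, differed by 3.06 ± 0.24, Muc1 by 5.77 ± 0.46 and Fabp3, a fatty acid carrier, by 8.59 ± 1.09. The groups did not overlap for any of these. Btn1a1, butyrophilin, shows how much a probe can matter: its brightest probe rose by 0.69 ± 0.18, with overlapping groups and -0.22 on the spike-in scale, and its other 2 probes by 7.28 ± 0.71 and 7.36 ± 0.87. Cidea, a droplet fusion protein of secretory epithelium and brown fat, rose by 3.28 ± 0.47. Its relative Cidec, which marks white adipocytes, read 7.41, 7.53 and 8.01 in virgins and 6.52, 5.78, 6.43, 5.77 and 6.35 at day 18 and fell by 1.45 ± 0.17, the only fall in the list.

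Fatty acid synthesis genes were called at about the shares of all genes. Of 31 genes of fatty acid and triglyceride synthesis, 9 rose, 10 fell and 12 were not called, beside 31.2% and 28.8% of all genes, with a median of -0.44. Quantile scaling gave 8 rises and 17 falls and spike-in scaling 6 and 22. The rise at the top was Olah, the thioesterase that ends fatty acid chains early and so gives milk its medium-chain fats. It read -5.95, -4.02 and -1.001 in virgins and 7.58, 7.17, 7.71, 7.66 and 7.496 at day 18, a difference of 11.33 ± 0.66 (adjusted p = 4.4e-08). Fasn, fatty acid synthase, whose chains Olah cuts, read 8.19, 8.62 and 8.85 and 8.72, 7.84, 8.73, 7.96 and 8.49, a difference of -0.19 ± 0.18 (adjusted p = 0.38), with overlapping groups. Acaca, the carboxylase that feeds it, differed by 0.26 ± 0.24 (adjusted p = 0.37), or -0.66 on the spike-in scale, and 1 of its 6 other probes was called, at 1.86 ± 0.24. Acsl4, a long-chain acyl-CoA synthetase, rose by 3.33 ± 0.21. Among genes that adipocytes also use, Mlxipl, the carbohydrate-sensing transcription factor, fell by 2.48 ± 0.22 by its brightest probe, while its other 2 probes were not called, at -0.15 and -0.26. Agpat2, a glycerolipid acyltransferase, fell by 2.27 ± 0.25, and Scd1, stearoyl-CoA desaturase, fell by 0.62 ± 0.18 with overlapping groups. The summed level of the 5 defining adipocyte markers was 573 to 829 times the 75th percentile in virgins and 276 to 409 times at day 18, and its part in these values was not tested.

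In cholesterol synthesis 6 of 22 genes rose and 5 fell, shares below those of all genes. Hsd17b7, which acts late in the pathway, rose by 3.09 ± 0.23 and Sqle, squalene epoxidase, by 1.16 ± 0.24, whereas Hmgcs1, an early enzyme, fell by 1.24 ± 0.19.

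Of 18 genes that supply lactose and glucose, 10 rose and 3 fell, with a median of 0.39. On the spike-in scale 3 were called higher and 11 lower, with a median of -0.53. B4galt1, the galactosyltransferase that forms lactose synthase with Lalba, read 3.36, 3.503 and 3.75 in virgins and 7.63, 6.67, 7.64, 7.24 and 6.76 at day 18. The groups were far apart and tight, and the difference was 3.66 ± 0.18 (adjusted p = 9.9e-09). Slc2a1, the glucose transporter GLUT1, rose by 1.78 ± 0.29. Ugdh, which diverts UDP-glucose to glucuronate, fell by 1.92 ± 0.15, and Pgm1, phosphoglucomutase, fell by 1.47 ± 0.19.

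Calcium and phosphate genes moved both ways. Of 18 calcium and phosphate genes, 11 rose and 6 fell, with a median of 0.93, or 0.0089 on the spike-in scale. Atp2b2, the apical calcium pump of secretory cells, read -5.97, -5.45 and -5.22 in virgins and 1.36, -1.22, 1.67, 0.065 and -1.45 at day 18, a difference of 5.63 ± 0.49 (adjusted p = 1.1e-06). Its other probe gave 7.76 ± 0.60. Atp2c2, a Golgi calcium pump, rose by 5.56 ± 0.35, and Slc34a2, a phosphate carrier seen above background in 0 virgins and 5 pregnant mice, was at least 52.5-fold higher. Another plasma membrane pump, Atp2b4, fell by 1.84 ± 0.18, and Stim1, the sensor of store calcium, fell by 1.503 ± 0.15. Among 26 genes for trace metals, iodide and vitamins, 17 rose and 3 fell, with a median of 1.29. Folr1, a folate receptor, rose by 6.63 ± 0.40, from -1.76, 0.14 and 0.65 to 7.18, 5.81, 6.92, 5.83 and 6.19, and Slc30a2, the milk zinc exporter, rose by 4.07 ± 0.18. The other Folr1 probe gave 4.39 ± 0.18. Slc5a5, the iodide symporter, was not called, -1.80 ± 0.87 (adjusted p = 0.091), with 1 low virgin value, -5.69 in mouse 317. Without that mouse it fell by 2.54 (adjusted p = 0.00013). Rbp4, the retinol carrier that fat also secretes, fell by 2.23 ± 0.28.

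Water and chloride channels moved both ways. Among 15 water and chloride channels 7 rose and 4 fell, beside 31.2% and 28.8% of all genes, or 6 and 6 without virgin 317. The list median of 0.23 was -0.69 on the spike-in scale and -0.067 with quantile scaling. Aqp3, an aquaglyceroporin, read -5.87, -2.98 and 0.031 in virgins and 4.32, 2.92, 4.69, 3.30 and 2.86 at day 18, a rise of 6.46 ± 0.83, while Aqp5, a ductal water channel, read 1.56, 3.59 and 4.57 and 1.36, 0.40, 0.78, 0.71 and 0.80 and fell by 2.66 ± 0.44. Of 26 amino acid transporters 10 rose and 8 fell, near the shares of all genes, or 6 and 16 on the spike-in scale. Slc38a3, a glutamine carrier, rose by 3.46 ± 0.34, and Slc7a5 with its partner Slc3a2, which together import large neutral amino acids, rose by 3.21 ± 0.27 and 1.20 ± 0.12. Slc1a5, another glutamine carrier, fell by 2.30 ± 0.12 with no overlap of groups.

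Most genes of protein export and synthesis other than ER chaperones were called higher, by small amounts. Of 56 genes of the translocon, signal peptidase and vesicle coats, 46 rose and 2 fell, or 44 and 3 without virgin 320, with a median of 0.72. On the spike-in scale 7 were called higher and 12 lower, with a median of -0.19. Sec11c, a signal peptidase subunit, read 0.080, 0.30 and 0.47 in virgins and 3.34, 2.48, 3.01, 2.65 and 2.80 at day 18, a difference of 2.55 ± 0.14 (adjusted p = 2.6e-08). Ssr4, of the translocon-associated complex, rose by 2.42 ± 0.14, and Kdelr3, a retrieval receptor, fell by 1.59 ± 0.24. Among ER chaperone and unfolded protein response genes 12 of 29 rose, 3 fell and 14 were not called, beside 31.2% higher and 28.8% lower of all genes. The list median was 0.22, or -0.69 on the spike-in scale, on which 3 were called higher and 20 lower. Xbp1, a transcription factor of secretory cells, rose by 2.07 ± 0.12 and Trib3, a stress-induced pseudokinase, by 2.20 ± 0.31. Hspa5, the chaperone BiP, rose by 0.49 ± 0.16 (adjusted p = 0.015), with overlapping groups, a call lost with quantile scaling and turned to -0.43 with spike-in scaling. Its other probes were not called, at 0.198 and 0.205.

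All but 1 of 77 ribosomal protein genes rose, the median being 0.94, or 0.023 on the spike-in scale, on which 2 were called higher and 3 lower. Rps6 rose by 1.18 ± 0.12 and Rplp0 by 1.14 ± 0.13; the exception, Rpl37, was dim on these arrays and differed by -0.30 ± 0.25 (named after its value was seen). Of 20 aminoacyl-tRNA synthetases, which load tRNAs, 15 rose and 1 fell, with a median of 0.59. On the spike-in scale 3 were called higher and 10 lower, with a median of -0.33. Qars, for glutamine, rose by 1.75 ± 0.13, and Wars, for tryptophan, which interferon also induces, fell by 0.45 ± 0.10. The other Wars probe was not called, -0.39 ± 0.17. Of 62 oxidative phosphorylation genes 19 rose, near the share of all genes, 5 fell and 38 were not called. Without virgin 317 the rises were 16. Quantile scaling turned the counts to 2 rises and 33 falls and spike-in scaling to 1 and 59. Atp5g1, an ATP synthase subunit, rose by 1.499 ± 0.18, while another of its probes was not called, at -0.27 ± 0.11. Ndufs1, of complex I, fell by 0.59 ± 0.12 with overlapping groups, and its other probe was not called, at -0.33 ± 0.23. The list median of 0.13 was -0.78 on the spike-in scale and -0.24 with quantile scaling.

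**Figure D4:**
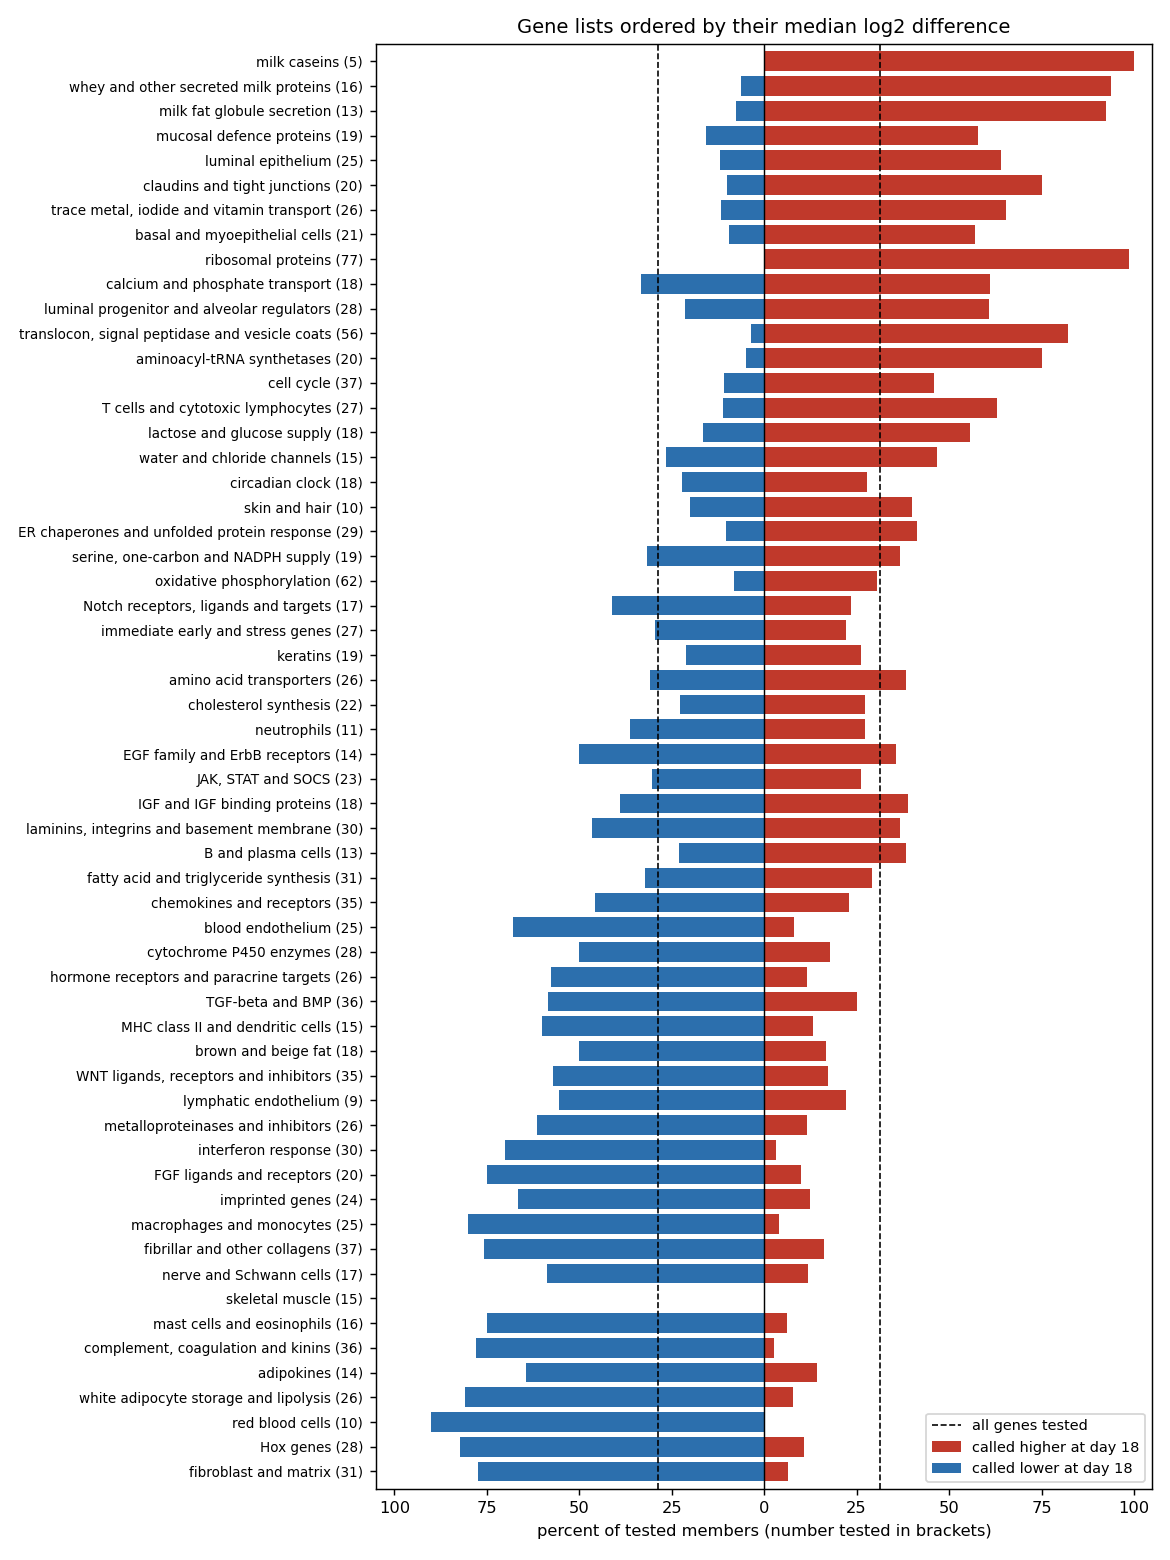
Percent of the tested members of each of 58 gene lists called higher (red, to the right) or lower (blue, to the left) at day 18, ordered by median log2 difference, with dashed lines at the shares over all genes tested. Caseins stand at the top with all 5 members higher, and fibroblast and matrix genes at the bottom with 24 of 31 lower.

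Epithelial genes rose unevenly. In the luminal list 16 of 25 rose and 3 fell, with a median of 1.88, or 1.63 without virgin 317. The summed level of the 6 defining luminal markers was 46.9 to 287 times the 75th percentile in virgins and 247 to 311 times at day 18, with 3 higher and 0 lower, and its part in the milk gene values was not tested. Elf5, the transcription factor of alveolar cells, read -1.21, 0.91 and 1.80 in virgins and 6.61, 5.98, 6.63, 6.33 and 5.83 at day 18, a difference of 5.56 ± 0.40 (adjusted p = 2.5e-07). Ehf, a related factor, rose by 3.51 ± 0.38 and Epcam, an epithelial adhesion protein, by 1.91 ± 0.33. The keratins that define luminal cells did not pass: Krt8 differed by 0.35 ± 0.41 and Krt18 by 0.37 ± 0.35, with pregnant values of 5.37 to 6.19 and 6.30 to 6.78 inside the virgin ranges of 3.66 to 6.58 and 4.35 to 6.94. On the spike-in scale these differences were -0.57 and -0.55. Prom1, a marker of hormone-sensing luminal cells, was above background in 7 virgins and 0 pregnant mice and was at least 5.24-fold lower. Foxa1, the pioneer factor of the same cells, read 1.995, 2.81 and 3.97 in virgins and -1.42, -1.53, -1.76, -1.41 and -1.45 at day 18 and fell by 4.502 ± 0.30 (adjusted p = 1.3e-07).

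Basal and contractile genes rose too, 12 of 21, with 2 falling and a median of 0.97, or 0.055 on the spike-in scale. The 5 defining basal markers all rose, from a summed level of 30.03 to 65.9 times the 75th percentile in virgins to 187 to 252 times at day 18. Acta2, smooth muscle actin of myoepithelial cells and vessels, read 4.45, 5.22 and 5.36 in virgins and 7.63, 7.15, 7.48, 7.28 and 7.55 at day 18, a difference of 2.40 ± 0.17 (adjusted p = 2.1e-07). Its other probes gave 3.24 ± 0.26, 1.99 ± 0.42 and, not called, 0.86 ± 0.41. Cnn1, calponin, rose by 2.74 ± 0.28 and Krt14 by 1.60 ± 0.40, while Oxtr, the oxytocin receptor through which milk is ejected, was not called, 0.58 ± 0.36 (adjusted p = 0.18), or -0.33 on the spike-in scale. Of 28 genes that regulate luminal progenitors and alveoli 17 rose and 6 fell, with a median of 0.79, or -0.12 on the spike-in scale. Bcl11a rose by 3.94 ± 0.19 and Sox10, a factor of progenitor and Schwann cells, by 3.13 ± 0.24. Gata3, the luminal master regulator, was only just called, 0.76 ± 0.30 (adjusted p = 0.044), lost the call without any 1 of 7 arrays, and turned to -0.16 on the spike-in scale. Tight junction genes, which close the milk space, rose in 15 of 20 cases and fell in 2, with a median of 1.74. Cldn8 rose by 4.32 ± 0.44, Cldn3 by 2.30 ± 0.31 and the scaffold Tjp3 by 3.49 ± 0.30, and Cldn11, found in nerve and other sheaths, was at least 6.29-fold lower.

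Genes of hormone sensing fell. Of 26 hormone receptors and paracrine targets 15 fell and 3 rose, with a median of -0.65. Esr1, the estrogen receptor, read 2.07, 2.46 and 2.96 in virgins and 0.46, 0.25, 0.47, -0.11 and 0.39 at day 18, a difference of -2.14 ± 0.15 (adjusted p = 2.3e-07). Its other probes ranged from -2.27 to -0.84, the latter not called. Pgr, the progesterone receptor, read -1.90, -0.41 and 1.23 and -3.73, -3.25, -3.203, -3.22 and -3.71, a difference of -3.27 ± 0.53 (adjusted p = 0.00017), with no overlap. Prlr, the prolactin receptor, read 1.89, 4.42 and 4.90 and 1.79, 2.51, 3.30, 2.83 and 2.27; its difference of -1.47 ± 0.48 (adjusted p = 0.019) overlapped and missed the threshold without pregnant mouse 206 (adjusted p = 0.051). Areg, amphiregulin, the estrogen target that drives duct growth, read 0.59, 1.72 and 3.58 in virgins and -7.31, -5.22, -7.49, -6.18 and -7.43 at day 18, when it was above background in 1 of 5 mice. It was at least 134-fold lower. Greb1, another estrogen target, fell by 3.32 ± 0.75 with overlapping groups. The 3 rises were Vdr, the vitamin D receptor, by 4.93 ± 0.33, Tnfrsf11a, the receptor RANK, by 2.84 ± 0.16, and Cited4, a prolactin-induced co-regulator, by 4.59 ± 0.49.

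In the JAK, STAT and SOCS list 6 of 23 genes rose (4 without virgin 317) and 7 fell, near the shares of all genes, with a median of -0.083 that was 0.0057 with normexp. Stat5a rose by 0.99 ± 0.16 (adjusted p = 0.00019) and Stat3 by 1.00 ± 0.16, and both were close to 0 on the spike-in scale, at 0.073 and 0.078. The other Stat3 probes gave 0.48 ± 0.19 and, not called, -0.096 ± 0.18. Cish, the feedback gene that STAT5 induces, read -0.21, 1.11 and 2.78 in virgins and 4.08, 3.41, 3.88, 3.51 and 3.46 at day 18, a rise of 2.40 ± 0.42 (adjusted p = 0.00028). At its RefSeq start 2 copies of the TTCNNNGAA motif stand in tandem, at chr9:107296659-107296678 (+ strand, GRCm38.p6), shown because 2 copies lie in a window of 20 bases.
Cish: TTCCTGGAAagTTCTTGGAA
Socs2, the gene altered in the knock-in line, was not called in wild-type mice. It read 0.51, 1.47 and 2.82 in virgins and 1.49, 1.45, 0.81, 1.52 and 1.35 at day 18, a difference of -0.26 ± 0.41 (adjusted p = 0.61), and none of its 4 probes was called. Socs1, another feedback inhibitor, fell by 1.84 ± 0.23.

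**Figure D5:**
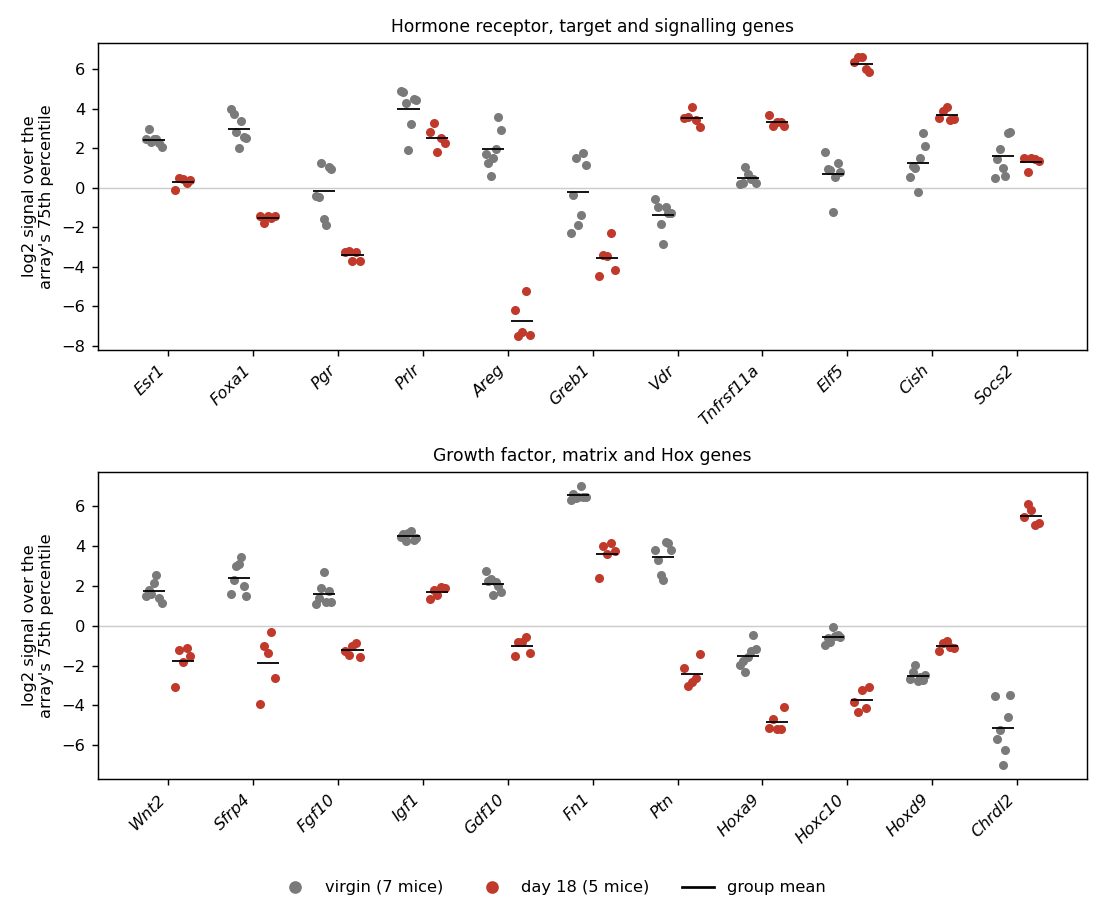
Log2 signal over the array's 75th percentile (vertical axis) of 11 hormone and signalling genes (upper panel) and 11 growth factor, matrix and Hox genes (lower panel), one point per mouse, grey for 7 virgins and red for 5 mice at day 18, with black lines for group means. Esr1, Foxa1, Pgr and Areg are lower in every pregnant mouse than in any virgin, Vdr, Elf5 and Chrdl2 are higher, and Socs2 overlaps.

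FGF and WNT genes fell more often than they rose. Among 20 FGF ligands and receptors 15 fell and 2 rose, with a median of -1.24. Fgf10, a stromal ligand of duct branching, fell by 2.83 ± 0.26 and its relative Fgf7 fell by 2.14 ± 0.33, and their receptor Fgfr2 fell by 1.62 ± 0.29. Of 35 WNT ligands, receptors and inhibitors 20 fell and 6 rose, with a median of -0.85. Wnt2, a stromal ligand, read 1.14, 1.58 and 2.56 in virgins and -1.81, -1.14, -1.23, -3.05 and -1.52 at day 18, a difference of -3.48 ± 0.33 (adjusted p = 2.1e-06). Sfrp4, a secreted WNT inhibitor, fell by 4.27 ± 0.57, and Axin2, a general WNT target, fell by 1.99 ± 0.24. Wnt4, the progesterone-induced ligand, was not called, -0.57 ± 0.47 (adjusted p = 0.32); without virgin 317 it fell by 0.90 (adjusted p = 0.029). Lgr4, an R-spondin receptor, rose by 3.69 ± 0.16, from -2.01, -1.63 and -1.29 to 2.41, 1.95, 2.02, 2.13 and 1.68. Its ligand Rspo1 rose by 2.82 ± 0.76 with overlapping groups and values of 0.76, 3.67, 0.97, 3.51 and 4.16 at day 18 that fell into a low and a high range, and Wnt5b rose by 2.58 ± 0.43.

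In the IGF list 7 of 18 rose and 7 fell, not far from the shares of all genes. Igf1, the growth factor that growth hormone induces in stroma, read 4.28, 4.46 and 4.74 in virgins and 1.54, 1.96, 1.80, 1.35 and 1.90 at day 18. The groups were tight and apart, and the difference of -2.79 ± 0.13 had one of the 10 smallest adjusted p values among falls, 8.9e-09. By its other probes the difference was -3.02 ± 0.36 and, not called, -0.27 ± 0.18. Igf2, a growth factor from the same family, rose by 1.80 ± 0.32 with overlapping groups and Igfbp2, a binding protein, by 2.46 ± 0.32, while Igfbp5, a binding protein linked to involution, was not called, -0.081 ± 0.22. In the EGF family 5 of 14 rose and 7 fell, beside 31.2% and 28.8% of all genes. Egf rose by 3.69 ± 0.48 (adjusted p = 2.6e-05), or by 0.79 ± 0.25 with its other probe, against the fall of Areg given above. Nrg4, a neuregulin that fat secretes, fell by 3.11 ± 0.30.

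Among TGF-beta and BMP genes 21 of 36 fell and 9 rose, with a median of -0.75. Chrdl2, a secreted BMP-binding protein, went against them: it read -6.99, -5.21 and -3.495 in virgins and 5.80, 5.08, 6.10, 5.48 and 5.15 at day 18, a difference of 10.63 ± 0.56 (adjusted p = 2.0e-08). Tgfb3 rose by 2.27 ± 0.24, and Gdf10, a BMP-like ligand of stroma, fell by 3.13 ± 0.22. In the Notch list 4 of 17 rose and 7 fell, beside 31.2% and 28.8% of all genes. Jag1, a ligand, fell by 1.01 ± 0.16 and Hey1, a target, fell by 1.82 ± 0.24, while Notch1 was not called, 0.78 ± 0.45 (adjusted p = 0.16), or -0.14 on the spike-in scale.

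More proliferation genes were called higher than lower at day 18, 17 against 4 of 37, with a median of 0.58. Without virgin 317, whose score was the highest of all 12 arrays, 22 were called higher. The groups did not overlap for 5 of the 37, beside 39.6% of all genes. With spike-in scaling the direction turned, with 2 higher, 14 lower and a median of -0.33. Mki67, the Ki-67 marker, read -0.88, 0.60 and 2.26 in virgins and 1.32, 2.40, 3.11, 2.97 and 2.78 at day 18, a difference of 2.0004 ± 0.49 (adjusted p = 0.0034), with overlapping groups. Ccnb1, the mitotic cyclin, rose by 2.16 ± 0.52 with overlapping groups and Ube2c, which ends mitosis, by 1.99 ± 0.37. On the spike-in scale Mki67 and Ccnb1 missed the threshold. The falls were led by Cdkn2c, a cyclin kinase inhibitor, at -2.37 ± 0.16, and Ccnd2, a D-type cyclin, at -1.74 ± 0.19.

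Fat cell genes fell. Of 26 white adipocyte genes 21 fell and 2 rose, with a median of -1.72, and 4 of the 5 defining markers summed above fell. Plin1, the droplet gatekeeper of adipocytes, read 4.37, 4.58 and 4.88 in virgins and 2.17, 1.62, 2.20, 1.58 and 2.10 at day 18, a difference of -2.65 ± 0.14 (adjusted p = 2.4e-08). Lipe, hormone-sensitive lipase, fell by 2.08 ± 0.19 and Hcar1, the lactate receptor of fat, fell by 3.19 ± 0.19. The rises were G0s2, an inhibitor of the lipase ATGL, by 1.63 ± 0.30, and Abhd5, an activator of the same lipase, by 1.12 ± 0.15. Of 14 adipokines 9 fell and 2 rose. Adipoq, adiponectin, read 7.05, 7.29 and 7.80 in virgins and 5.64, 5.47, 5.66, 5.23 and 5.87 at day 18 and fell by 1.80 ± 0.15. Retn, resistin, fell by 1.58 ± 0.17 and Sfrp5, a WNT-binding adipokine, fell by 3.21 ± 0.50. Lep, leptin, was not called, 0.13 ± 0.12 (adjusted p = 0.37), or -0.79 on the spike-in scale. Apln, apelin, which vessels and epithelium also make, rose by 4.14 ± 0.24. In brown fat Ucp1, the uncoupling protein, was above background in 6 virgins and 0 pregnant mice and at least 10.55-fold lower with overlapping groups. Cox8b, a cytochrome oxidase subunit of brown fat and muscle, fell by 4.07 ± 0.35. The brown fat list gave 9 falls and 3 rises of 18, beside 28.8% and 31.2% of all genes.

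Matrix and fibroblast genes fell. Of 37 collagen genes 28 fell and 6 rose, with a median of -1.44, and of 31 fibroblast and matrix genes 24 fell and 2 rose, with a median of -1.94. The 5 defining fibroblast markers all fell, from a summed level of 359 to 479 times the 75th percentile to 118 to 187 times. Col1a1, of the main fibrillar collagen, read 5.93, 6.29 and 6.80 in virgins and 5.17, 5.02, 4.96, 4.34 and 4.97 at day 18, a difference of -1.42 ± 0.18 (adjusted p = 2.3e-05). Col3a1 fell by 1.10 ± 0.13, Dcn, decorin, fell by 1.35 ± 0.14, and Fn1, fibronectin, fell by 2.97 ± 0.26. The other Col3a1 probes gave -2.70 ± 0.43 and -2.46 ± 0.45. Ptn, pleiotrophin, a heparin-binding growth factor, read 2.29, 3.80 and 4.20 in virgins and -2.84, -2.63, -3.05, -2.15 and -1.40 at day 18 and fell by 5.86 ± 0.38 (adjusted p = 1.1e-07). A few collagens rose: Col9a1, best known from cartilage, read -4.64, -2.70 and -1.55 in virgins and 5.48, 4.16, 5.18, 4.59 and 4.14 at day 18, a rise of 7.49 ± 0.44 (adjusted p = 5.0e-08). Col4a5 and Col17a1, of the epithelial basement membrane, rose by 1.27 ± 0.17 and 1.23 ± 0.17. Tnc, tenascin-C, was also higher, by 2.70 ± 0.39.

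Basement membrane genes divided, 11 of 30 up and 14 down, beside 31.2% and 28.8% of all genes. Lama1, a laminin chain, rose by 3.18 ± 0.35 and Itga8, an integrin of contractile cells, by 3.33 ± 0.22, while Itga7, a laminin receptor, fell by 2.28 ± 0.11 and Nid1, nidogen, fell by 1.48 ± 0.16. Of 26 metalloproteinases and inhibitors 16 fell and 3 rose, with a median of -1.05. Mmp12, the macrophage elastase, was above background in 3 virgins and at least 6.50-fold higher at day 18, Mmp13, a collagenase, rose by 2.66 ± 0.36, and Mmp19 fell by 2.46 ± 0.19.

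Vessel genes were lower. Of 25 blood endothelial genes 17 fell (19 without virgin 317) and 2 rose, with a median of -0.61. The 4 defining endothelial markers summed to 12.8 to 16.8 times the 75th percentile in virgins and 8.70 to 11.02 times at day 18, with 3 lower. Pecam1 differed by -0.49 ± 0.16 (adjusted p = 0.016), with overlapping groups, a call lost with median scaling, and Cdh5, the defining cadherin, was not called, -0.22 ± 0.13 (adjusted p = 0.17). Vwf, von Willebrand factor, fell by 1.51 ± 0.14 and Ackr1, a chemokine sink of venules, fell by 2.02 ± 0.20. The other Vwf probes gave -1.86 ± 0.33 and, not called, -0.18 ± 0.28. In the lymphatic list Lyve1 fell by 2.70 ± 0.60, whereas Prox1, the lymphatic regulator, rose from -6.77, -5.02 and -4.29 to -1.66, -2.40, -1.24, -0.82 and -1.80, by 3.56 ± 0.39; Prox1 is also expressed outside lymphatics.

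Macrophage genes fell in 20 of 25 cases and rose in 1, with a median of -1.40, or -1.23 without virgin 317. All 4 defining macrophage markers fell, from a summed level of 29.99 to 92.5 times the 75th percentile to 16.2 to 28.6 times. Adgre1, which encodes F4/80, read 1.67, 2.36 and 3.37 in virgins and 0.97, 1.32, 1.22, 0.40 and 1.03 at day 18, a difference of -1.40 ± 0.29 (adjusted p = 0.0011). Mrc1, the mannose receptor, fell by 2.15 ± 0.25 and Timd4, of resident macrophages, fell by 3.89 ± 0.49. The rise was Cx3cr1, the fractalkine receptor, by 1.02 ± 0.16. Of 27 T cell and cytotoxic genes 17 rose and 3 fell, with a median of 0.53. On the spike-in scale the direction turned, with 3 higher, 11 lower and a median of -0.39. Cd3e, of the T cell receptor complex, read -1.21, -0.81 and -0.60 and 0.37, 0.017, 0.10, -0.20 and 0.31, a rise of 0.99 ± 0.14, with the 4 tested markers summing to 0.783 to 1.30 times the 75th percentile in virgins and 1.68 to 2.33 times at day 18. Cd8a, the coreceptor of cytotoxic cells, rose by 1.62 ± 0.20 and Gzmb, granzyme B, by 2.32 ± 0.23.

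B cell and plasma cell genes gave 5 rises and 3 falls of 13, and the 3 tested markers summed to 0.552 to 1.31 times the 75th percentile in virgins and 0.285 to 0.677 times at day 18. Pax5, the B cell factor, rose by 3.97 ± 0.32 and Derl3, of secretory ER, by 3.74 ± 0.33. Mast cell and eosinophil genes fell in 12 of 16 cases, and Mcpt4, a mast cell protease, fell by 2.10 ± 0.37. The single rise was Kit, 1.77 ± 0.34, a receptor that luminal progenitors also express. Neutrophil genes were called near the shares of all genes, 3 higher and 4 lower of 11: S100a8, a calcium-binding protein, rose by 2.92 ± 0.30 and Ly6g, the mouse neutrophil marker, fell by 2.26 ± 0.29. Antigen presentation genes gave 9 falls and 2 rises of 15: Ciita, their master regulator, fell by 0.72 ± 0.15 and H2-Ab1 was not called, -0.30 ± 0.21 (adjusted p = 0.24). Another H2-Ab1 probe was called lower, -0.72 ± 0.28, and the remaining ones were not called.

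The interferon response was lower at day 18, with 21 falls and 1 rise among 30 genes and a median of -1.12, or -0.85 without virgin 317, which had the highest score. Oas2, an RNA sensor, read 2.09, 3.07 and 4.29 in virgins and 0.69, 1.62, 1.13, 0.62 and 0.53 at day 18, a difference of -2.08 ± 0.35 (adjusted p = 0.00022), Ifit3 differed by -2.09 ± 0.51 and Mx1 by -2.31 ± 0.52. Of 35 chemokines and receptors 16 fell and 8 rose. Cxcl12, a stromal chemokine, fell by 1.96 ± 0.17, Cxcl15 was at least 19.1-fold lower, and Ccl20, a mucosal chemokine above background in 0 virgins and 4 pregnant mice, was at least 3.57-fold higher.

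Nerve and blood genes fell. Of 17 nerve and Schwann cell genes 10 fell and 2 rose. S100b, a calcium-binding protein of Schwann cells and fat, fell by 3.37 ± 0.30. The 4 defining Schwann cell markers summed to 10.2 to 24.9 times the 75th percentile in virgins and 17.1 to 24.8 times at day 18, with Sox10, which the epithelium also expresses, the rise among them. Red blood cell genes fell in 9 of 10 cases, and Hba-a1, alpha globin, fell by 1.58 ± 0.34. The summed level of the 2 tested globin markers was 114 to 364 times the 75th percentile in virgins and 36.5 to 91.2 times at day 18. No skeletal muscle gene was called among 15: Acta1 read -0.81, -0.15 and 7.51 in virgins and 2.20, 1.84, 2.54, 1.71 and 2.27 at day 18, and Myh4 read -7.92, -0.83 and 7.88 and -6.35, -7.87, 2.16, -2.14 and -4.81, the highest virgin value being mouse 320 in both. Without virgin 320, 2 of the 15 were called, both higher.

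Positional and imprinted genes fell. Of 28 Hox genes tested from 39 listed, 23 fell and 3 rose, beside 28.8% and 31.2% of all genes, with a median of -1.86. The groups did not overlap for 24 of the 28, beside 39.6% of all genes. Hoxa9, a homeobox factor of limb and trunk patterning, read -2.30, -1.59 and -0.48 in virgins and -5.20, -5.17, -4.69, -5.11 and -4.09 at day 18, a difference of -3.34 ± 0.30 (adjusted p = 1.2e-06), and Hoxc10 fell by 3.13 ± 0.23. The 3 rises were neighbours in the HoxD cluster: Hoxd8 by 0.62 ± 0.14 with overlapping groups, which was -0.30 on the spike-in scale, Hoxd9, from -2.75, -2.60 and -1.99 to -0.75, -1.09, -0.88, -1.26 and -1.13, by 1.49 ± 0.15, and Hoxd10, above background in 2 virgins, at least 5.05-fold. Of 24 imprinted genes, which are read from 1 parental copy, 16 fell and 3 rose, with a median of -1.32. H19, a noncoding RNA, fell by 2.88 ± 0.50, Dlk1, a preadipocyte protein, fell by 1.59 ± 0.18 and Mirg, a host of microRNAs, fell by 2.39 ± 0.21. Besides Igf2, Igf2r, which clears IGF2, rose by 0.85 ± 0.17, a value that was -0.073 on the spike-in scale.

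Clock genes are read at 1 time of day per mouse, which the labels do not give. Arntl and Per2, of the core loop, were not called, 0.57 ± 0.38 and 0.44 ± 0.50, or -0.35 and -0.48 on the spike-in scale, while Hlf, an output factor, rose from -2.23, -1.38 and -0.48 to 3.04, 2.28, 2.58, 2.64 and 2.40, by 4.06 ± 0.27 (adjusted p = 1.2e-07), and Nr1d1, a core repressor, fell by 1.45 ± 0.23. Among immediate early genes, which respond to handling within minutes, Fos was not called, 0.28 ± 0.30 (adjusted p = 0.44) and -0.64 on the spike-in scale, and Egr2 fell by 3.59 ± 0.42. Keratins outside the 2 epithelial lists also varied: Krt6a fell by 3.2005 ± 1.01, its difference being -2.53 without virgin 318, and Krt79 fell by 2.61 ± 0.31. Of 28 cytochrome P450 genes 14 fell and 5 rose. Cyp24a1, which degrades active vitamin D, was above background in 0 virgins and 5 pregnant mice and at least 7.02-fold higher, beside the rise of Vdr, while Cyp2e1, which fat expresses, fell by 2.66 ± 0.25. Complement and coagulation genes fell in 28 of 36 cases (26 without virgin 317), with a median of -1.67. Fgb, a fibrinogen chain, was at least 16.8-fold lower and Proc, protein C, fell by 3.90 ± 0.52. C3, the central complement protein, was not called by its brightest probe, -0.18 ± 0.12 (adjusted p = 0.22). Its other probe was called lower, -0.51 ± 0.15.

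The largest falls included 4 genes not yet described. Dmbt1, a mucosal scavenger protein, read 1.02, 6.31 and 6.95 in virgins and -7.23, -8.01, -7.36, -7.30 and -7.25 at day 18, was above background in 0 pregnant mice, and was at least 1608-fold lower. The lowest virgin value, by far, was that of mouse 317. Ido1, which degrades tryptophan, read -2.49, 3.80 and 4.73 and -4.74, -5.87, -6.18, -7.41 and -6.29 and was at least 273-fold lower, again with mouse 317 the lowest virgin. Fam25c and Cyp3a57 were at least 79.3-fold and 35.9-fold lower. The calls with the smallest p values came from tight groups. Fam20a, a partner of the kinase that phosphorylates secreted proteins, caseins included, read 1.30, 1.74 and 1.996 in virgins and 6.27, 6.07, 6.41, 6.52 and 6.36 at day 18, a rise of 4.67 ± 0.13 (adjusted p = 1.6e-10). Osbpl10, a lipid-binding protein, rose by 4.41 ± 0.12 (adjusted p = 1.2e-10), or by 2.48 ± 0.19 with its other probe. Among falls Maob, a monoamine oxidase, read 2.45, 2.49 and 2.68 and 0.052, 0.12, 0.10, -0.039 and 0.25, a difference of -2.41 ± 0.085 (adjusted p = 7.2e-10). Slc36a2, an amino acid carrier of fat, fell by 3.28 ± 0.13, Nnmt, which methylates nicotinamide, fell by 3.001 ± 0.13, and Phyh, a peroxisomal enzyme, fell by 2.55 ± 0.11.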

How the data were processed

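RNA from 24 glands was hybridised to Agilent SurePrint G3 mouse gene expression v2 8x60K arrays in 1 colour, Cy3, 1 mouse per array. Per the file headers, the deposited spot intensities were background-subtracted and detrended by Agilent Feature Extraction 12.0.3.2 with no scaling between arrays, and the array design used mouse build NCBI37 (mm9). The authors' deposited value table holds log10 of the same processed intensity to rounding error and was used as a check.

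The processed intensity of each spot was put on a log2 scale and the log2 of the array's 75th percentile over non-control probes was subtracted. Spots marked as outliers were left out. Probes had to exceed background clearly in 80% or more of the mice of 1 wild-type group or both, which left 34628 probes and, with the brightest probe standing for a gene, 22071 genes. Probes were named through RefSeq accessions (35405 probes), current symbols (9124), synonyms (25) or the name in the file (12051). Of 8021 genes with several probes, 270 had probes called in opposite directions. Of 107 named genes with several probes, 87 had all probes called in 1 direction, though the sizes could differ between probes. Another 14 had some probes not called, and 0 had probes called in both directions.

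Stage was tested over the 12 wild-type arrays with limma 3.58.1 under R 4.3.3 (lmFit, eBayes, Benjamini-Hochberg adjustment). The genotype comparison used an interaction contrast over all 24 arrays. Where under 50% of the dim stage's arrays detected a gene, the fold is a lower bound: the bright mean against, per array, the higher of the lowest signal well above background and the gene's own. Means of normalized log2 values were used, and 1470 called genes have only such a bound. In data simulated for this comparison over 22071 genes, 69% of 100 genes changed by 1 log2 unit and 93% of 100 changed by 2 were recovered, with 8 false calls. Only these genes were changed and noise was independent between genes, whereas 60.1% of genes were called in the real data. The simulated shares and false calls are therefore not rates for the real comparison.

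The gene lists and members were chosen with earlier results of these data known. Named genes are the 12 largest rises and falls, the 10 smallest adjusted p values each way, and each list's key genes and 3 largest called changes each way. This rule gives 519 entries for 431 genes, and the text leaves out 222 entries, among them results not reported here. Replicates were separate mice by their numbers. Mouse sequences come from RefSeq, GRCm38.p6, where 21 of 27 genes looked up had a window. Alternatives were other scalings, normexp background correction, other filters, the mean over probes, slide as a block, all 24 arrays, array weights, other moderation, a muscle covariate and each array left out.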

Additional observations from a re-analysis of the deposited data

Results flagged for a closer look

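In 46 of 440 groups examined (10.45%), 1 mouse stood apart from the rest of its group for a named gene, by Dixon's gap ratio. Values normally spread and independent between genes would give about 1 such group in 20 by chance. The genes share the same mice, and some groups lay below background, so that rate is only a guide. Virgin mouse 317 accounted for 19 of the 46. Levels are log2 signals over the array's 75th percentile, and the causes were not tested.

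In virgin 317 epithelial genes were low: Elf5 at -1.21 against 0.53 in the nearest virgin, Krt8 at 3.66, Krt18 at 4.35, Epcam at -1.36, Krt14 at 0.25, Gata3 at 2.86 and Kit at 0.020. Low too were the secreted or surface genes Csn3 at 2.62, Lcn2 at 0.98, Muc1 at -4.50, Dmbt1 at 1.02 against 5.04, Ido1 at -2.49 against 2.34, Jchain at -3.36 and Cxcl15 at -3.76. Its carriers Slc5a5, at -5.69 against -1.40, and Slc1a5, at 4.95, were low, as were Tgfb3 at 1.51 and Proc at -3.40, while Tnc was high at -1.76.

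Virgin 369 was low for Pigr at 5.12 and Notch1 at -1.73, and high for Slc3a2 at 3.89, Fn1 at 7.03, Dcn at 7.82 and Maob at 2.68. Its Slc34a2 value of -6.90 stood above the others, but no virgin was above background for that gene, so this is no difference in level. Virgin 320 was high for Slc38a3 at -3.16 and Igf2 at -1.26, and for Ccl20 at -7.09 only among values below background. Virgin 256 was low for Slc30a2 at -6.11 and Arntl at -2.25, virgin 365 was low for Prox1 at -6.77, and virgin 188 was high for Bcl11a at -2.03 and Cx3cr1 at 0.54.

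Among pregnant mice, 235 was high for Jchain at 2.84, Atp2b4 at -3.68 and Lep at -1.80, and low for Jag1 at -1.34 and Itga8 at 1.52. Mouse 234 was low for Ccnd2 at 3.04, Col1a1 at 4.34 and Mcpt4 at -0.028. Mouse 233 was low for Cited4 at 4.34 and Socs2 at 0.81. Mouse 232 was high for Ugdh at 1.82 and low for Dmbt1 at -8.01, where all 5 values were below background.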

How the results depend on the processing

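Of 220 named genes, 179 could be tested under all 25 alternatives, and 137 of these kept direction and side of the threshold throughout. The other 41 did not pass the filter that asks for all 12 arrays. The called count was 13332 with slide as a block, 13147 with quantile scaling and 13155 with median scaling. It was 17579 on the spike-in scale and 12579 to 13451 with 1 array left out. It was lowest, 9314, in the fit to all 24 arrays, and 11062 with the filter on all 12 arrays. In the 24-array fit 10 named genes lost their call: Btn1a1, Scd1, Hspa5, Wars, Ndufs1, Krt14, Gata3, Prlr, Col17a1 and Pecam1. On the spike-in scale 1579 genes were higher, 16000 lower, 10922 at least 2-fold and 3984 at least 4-fold changed. Normexp gave 3785 and 832 at those sizes. Without the filter on dim probes 12265 were higher, and with probes above background on all 12 arrays 1170 changed at least 4-fold.

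On the spike-in scale 15 named genes turned sign: Btn1a1 at -0.22, Acaca -0.66, Hspa5 -0.43, Gata3 -0.16, Lep -0.79, Hoxd8 -0.30 Igf2r -0.073, Oxtr -0.33, Notch1 -0.14, Arntl -0.35, Per2 -0.48, Fos -0.64, Krt8 -0.57, Krt18 -0.55 and Pigr -0.38. Acaca, Lep and the last 8 were not called by the report's scaling, and quantile scaling also turned Acaca, Krt8, Krt18 and Pigr. A further 14 named genes lost their call on the spike-in scale without a change of sign, Mki67 and Ccnb1 among them. That scale moved the median of all genes by -0.92, and which scale is nearer the RNA amount per gland was not tested. With 1 array left out, no called gene named turned direction, Igfbp5, not called, turned sign in 2 of 12 cases, Gata3 lost its call in 7 of 12 cases and Prlr in 1. Calls were gained by Slc5a5 and Wnt4 without virgin 317, Acta1 without virgin 320 and Pigr without mouse 235. Genes near background have only bounds. No paired analysis was possible because the mouse numbers of the stages all differ.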
